A study of Homo sapiens with 3 samples.

Results

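Transcript levels in CAL 27 cells transfected with nm23-H2 were compared with those in CAL 27 cells carrying the empty vector, on 1 Affymetrix array each. CAL 27 is a line from a poorly differentiated squamous cell carcinoma of the tongue. The nm23-H2 cells were stably transfected with pEGFPC1-nm23-H2 and overexpressed nm23-H2, and the vector cells were stably transfected with the empty plasmid and overexpressed GFP, as their labels state. The design text names clones, for nm23-H1 and for the empty vector, and gives neither their number nor a clone for nm23-H2. The series holds 3 arrays, the third being of nm23-H1 cells, and the comparison uses 2 of them. All 19071 probe sets that carry a single gene symbol, of 22283 on the array, were taken, together with 1 probe set that NME2 shares with the read-through transcript NME1-NME2. They stand for 11964 genes, of which 7561 were measured, that is above the floor of 28.3 signal units on at least 1 of both arrays. With 1 array per group no difference has a replicate check and no test across samples was possible, so every value below describes this pair of transfected lines, in which construct and line cannot be told apart.

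Nm23-H1 and Nm23-H2, the products of NME1 and NME2, are nucleoside diphosphate kinases, enzymes that pass a phosphate group from ATP to other nucleoside diphosphates. NME1 has long been studied as a suppressor of metastasis, and Nm23-H2 has also been described as a DNA-binding protein. Genes described below belong, among others, to the unfolded protein response, by which a cell with misfolded protein in its endoplasmic reticulum (ER) makes more chaperones, and to the pathway of NF-kB, a transcription factor of inflammation that also switches on its own inhibitors.

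Promoter stretches of genes from the lists described below are shown first, because the response elements known for both pathways can be read in them. They are the 150 bases before the transcription start in RefSeq (assembly GRCh38.p14), 5′ to 3′ in the direction of the gene, with motif matches in capitals.
The ER stress element, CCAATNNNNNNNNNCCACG, is bound by ATF6 and the CCAAT factor NF-Y, and its match in the promoter of HSPA5, the ER chaperone BiP, at chr9:125241344-125241493 (minus strand) began 66 bases before the start. Of 2 matches in the promoter of HSP90B1, which encodes the ER chaperone GRP94, at chr12:103930260-103930409 (plus strand), the one shown lay on the opposite strand, 89 bases before the start.
HSPA5: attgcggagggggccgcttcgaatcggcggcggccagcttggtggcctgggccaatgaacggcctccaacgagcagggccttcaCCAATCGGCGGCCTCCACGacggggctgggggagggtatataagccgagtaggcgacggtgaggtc
HSP90B1: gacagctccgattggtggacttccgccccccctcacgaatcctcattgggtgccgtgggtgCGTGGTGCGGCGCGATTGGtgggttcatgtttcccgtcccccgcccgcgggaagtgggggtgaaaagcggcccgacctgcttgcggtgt
The ER stress element II, ATTGGNCCACG, stood 117 bases before the start of HERPUD1, a membrane protein of ER-associated degradation, at chr16:56931992-56932141 (plus strand). The amino acid response element, TGATGNAA, which binds ATF4, stood 68 bases before the start of ASNS, asparagine synthetase, at chr7:97872409-97872558 (minus strand).
HERPUD1: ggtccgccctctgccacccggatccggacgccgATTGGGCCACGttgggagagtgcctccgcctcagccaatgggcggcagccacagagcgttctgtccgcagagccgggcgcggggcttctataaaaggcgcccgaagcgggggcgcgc
ASNS: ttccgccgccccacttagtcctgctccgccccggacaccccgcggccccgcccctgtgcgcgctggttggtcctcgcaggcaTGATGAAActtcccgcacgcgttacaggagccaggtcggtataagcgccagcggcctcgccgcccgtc
The kappaB motif, bound by NF-kB dimers, stood 81 bases before the start of NFKBIA, the inhibitor IkB-alpha, at chr14:35404750-35404899 (minus strand), on the opposite strand. It occurred 67 and 55 bases before the start of TNFAIP3, the inhibitor A20, at chr6:137867109-137867258 (plus strand), both times on the opposite strand.
NFKBIA: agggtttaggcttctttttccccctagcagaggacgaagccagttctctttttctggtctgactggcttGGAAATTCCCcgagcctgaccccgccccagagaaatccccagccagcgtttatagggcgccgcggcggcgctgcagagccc
TNFAIP3: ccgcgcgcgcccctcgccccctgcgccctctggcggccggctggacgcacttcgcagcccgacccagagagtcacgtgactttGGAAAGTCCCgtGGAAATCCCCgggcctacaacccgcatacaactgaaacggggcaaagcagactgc
The CCAAT box, which is also the first 5 bases of the ER stress element, is shown in the promoters of H1-2 and H2BC12, a linker and a core histone gene that were lower with nm23-H2, at chr6:26056471-26056620 and chr6:27146859-27147008 (both minus strand).
H1-2: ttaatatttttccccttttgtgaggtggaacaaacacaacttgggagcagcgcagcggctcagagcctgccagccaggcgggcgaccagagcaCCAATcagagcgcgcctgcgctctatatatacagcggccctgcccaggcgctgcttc
H2BC12: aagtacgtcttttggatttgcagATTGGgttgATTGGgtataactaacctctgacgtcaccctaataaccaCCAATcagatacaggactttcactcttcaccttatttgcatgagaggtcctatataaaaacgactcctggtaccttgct

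Each motif was searched on both strands of windows from 250 bases before to 50 after the start. The ER stress element occurred in 5 of 15 promoters of the measured ER chaperone genes (33.3%: HSPA5, HSP90B1, CALR, CANX and CRELD2), against 0.0806% of all 27305 promoters and 0.16% of the promoters of 6243 measured genes. CANX holds the element and was not higher with nm23-H2, as given below. The amino acid response element occurred in 4 of 19 promoters of the ATF4 target genes (21.1%) and in 3.67% of all promoters, and the kappaB motif in 4 of 16 promoters of NF-kB components (25%), 4 of 10 of cytokines (40%), 7 of 16 of antigen presentation genes (43.8%) and 5.72% of all promoters. The CCAAT box occurred in 14 of 18 histone promoters (77.8%) and in 35.7% of all. A match is a description of the sequence, and binding was not measured. The shares cover listed genes whichever way they differed, and the elements are ones already known for these pathways. They are therefore no test of the differences between the arrays.

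The arrays differed as a whole in ways that bear on every gene. Before scaling, the mean between the 2nd and 98th percentiles was 100.0 signal units for nm23-H2 and 79.6 for vector, and the arrays were brought to a common mean. Scaled signals exceeded the floor for 47.4% of the nm23-H2 and 50.9% of the vector probe sets. The 18 probe sets for control transcripts of bacterial and phage origin were 1.32-fold to 1.99-fold brighter on the scaled nm23-H2 array (median 1.63-fold), and their part in the gene differences was not tested. The 3' to 5' signal ratio, a sign of RNA integrity, was 1.90 against 1.75 for ACTB and 1.04 against 0.881 for GAPDH. Of the keratinocyte markers with a probe set, 9 of 9 were above the floor on both arrays (summed signal 43310 with nm23-H2, 31562 with vector). Of fibroblast markers 2 and 1 of 8 were above it, of leukocyte markers 2 and 3 of 7, of endothelial markers 0 and 1 of 5, of melanocyte markers 2 and 0 of 3 (summed signal 80.5 and 54.2), of neuron markers 2 and 2 of 3, and of hepatocyte markers 0 of 4 on both. The part of other cell types in the differences was not tested. In extracts of whole cultures, a change in the share of cells that express a gene and a change in RNA per cell cannot be told apart.

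With nm23-H2, 284 genes reached 2-fold or more above the vector level (3.76% of those measured) and 290 lay as far below it (3.84%), together 574 (7.59%). For 49 and 85 of them the dimmer array was at the floor, so that the fold is a bound and is written "at least". A difference of 4-fold or more was found for 31 higher and 15 lower genes. The median difference of all measured genes was -0.09 on the log2 scale, with quartiles of -0.40 and 0.25, and 42.3% of the genes lay above 0. Each list below is to be read beside these shares: 3.76% higher, 3.84% lower and 42.3% above 0. Higher genes made up 49.5% of those past 2-fold, but 85.4% in the values as deposited (631 higher, 108 lower, all-gene median 0.21), 38.8% with a common median and 61.6% with the trend on brightness removed. Probe sets of the same gene disagreed with an SD of 0.35 (log2, 1641 genes), the only error that could be measured. Of the genes past 2-fold, 179 had a further probe set above the floor, which went the same way for 156 (87.2%) and also passed 2-fold for 46.

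**Figure D1:**
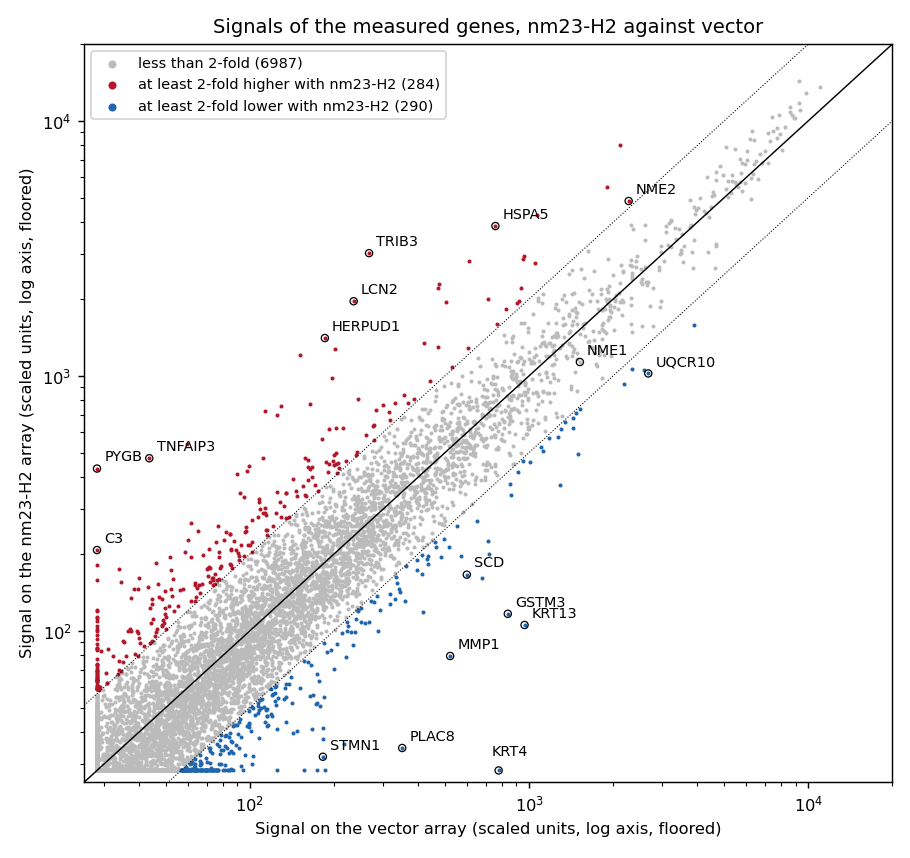
Scaled signal of each of the 7561 measured genes on the vector array (x) and the nm23-H2 array (y), both on log axes in signal units with values below the floor set to 28.3; the solid line marks equal signals and the dotted lines 2-fold. The 284 higher genes (red) include TRIB3, HSPA5 and LCN2 far above the line, and the 290 lower genes (blue) include KRT13 and, at the floor on the nm23-H2 array, KRT4.

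The transfected gene was higher on its own array. The NME2 probe set, which also reads the NME1-NME2 transcript, gave 4845 signal units with nm23-H2 and 2272 with vector, 2.13-fold. With quantile normalization and with the brightness trend removed NME2 was under 2-fold, at the lowest 0.91 on the log2 scale. NME1 gave 1132 and 1519 signal units, 1.34-fold lower with nm23-H2. NME3, whose product is a further kinase of the family, gave 209 and 71.2 (2.94-fold), NME4, whose product is mitochondrial, gave 258 and 218, and NME6 gave 37.2 and 39.3. Of 5 family members measured, 2 were past 2-fold, both higher, with a median difference of 0.24 that turned to -0.08 with only probe sets specific by name. NME2 and NME1 had 1 probe set each, and where its probes lie relative to the construct is not known here.

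ER chaperone and folding genes were mostly higher with nm23-H2: 13 of 16 measured lay above 0, 5 were at least 2-fold higher and none 2-fold lower, with a median difference of 0.75 against -0.09 for all genes. HSPA5, the chaperone BiP that also restrains the stress sensors, gave 3865 signal units against 757, 5.11-fold. DNAJB9, a co-chaperone of BiP, gave 443 against 99.5, 4.45-fold. SDF2L1 (2.62-fold), MANF (2.19-fold) and CALR, calreticulin (2.16-fold), completed the 5, although the other CALR probe sets gave log2 differences of 0.27 and 0.42. HSP90B1 was above the floor with nm23-H2 alone (50.8 signal units, at least 1.79-fold), by an _x_at probe set. Its only other probe set, also _x_at, was below the floor on both arrays. P4HB, a protein disulfide isomerase, gave 2576 against 1714. Not all major chaperone and folding genes were higher. CANX, calnexin, gave 601 signal units with nm23-H2 and 846 with vector, and its other probe sets went the same way. PDIA4, also a disulfide isomerase, gave 163 against 176, and 0.65 on the log2 scale by its other probe set.

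Among 23 genes of ER-associated degradation and translocation, 3 were past 2-fold, all higher, while the median difference of the list was -0.03, and 11 lay above 0. HERPUD1 gave 1406 signal units against 186, 7.58-fold. VCP, the ATPase that draws proteins out of the ER membrane, gave 1299 against 471 (2.76-fold), and SEL1L, the scaffold of a ubiquitin ligase complex, 159 against 73.9 (2.15-fold). One further SEL1L probe set gave -0.06. The translocon gene SEC61B (-0.08) and the degradation factor DERL2 (-0.29) were not higher, and DERL1 gave -0.56 and 0.37 by its 2 probe sets. The list's median was above 0 in the values as deposited, with quantile normalization and with the brightness trend removed.

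The transcription factors of the stress response stood highest among all 44 lists, with a median difference of 0.96: of 16 genes, 13 lay above 0 and 8 were at least 2-fold higher. TRIB3, a pseudokinase induced by ATF4 and CHOP, gave 3026 signal units against 267, 11.3-fold. DDIT3, which encodes CHOP, gave 704 against 125 (5.64-fold), and ATF3 gave 246 against 65.2 (3.78-fold). These 3 act in the arm that begins with the kinase PERK. CEBPB was 3.01-fold higher, ATF4 itself 2.13-fold (1958 against 921), and PPP1R15A, the phosphatase subunit that ends the translational block, 2.59-fold, with 2.82 on the log2 scale by its other probe set. XBP1, whose mRNA is spliced by IRE1, gave 451 against 191 (2.36-fold), and the probe set does not tell its splice forms apart. Of the stress sensors, ATF6 gave 71.0 against 92.8 and ERN1, which encodes IRE1-alpha, 38.5 against 47.7, and EIF2AK3, which encodes PERK, was below the floor on both arrays. TRIB3, VCP and CREB3 (2.18-fold) lie in chromosome stretches whose genes were higher together, as given below: the median difference of the 50 genes around TRIB3 was 0.73, around VCP 0.60 and around CREB3 0.50.

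The ATF4 targets of amino acid supply had a median difference of 0.69, and 20 of 24 lay above 0, of which 5 were at least 2-fold higher. DDIT4, an inhibitor of mTORC1, gave 2217 signal units against 472 (4.70-fold), CHAC1, which degrades glutathione, 303 against 113 (2.69-fold), and ASNS 783 against 330 (2.37-fold). VEGFA and CEBPB completed the 5. The serine synthesis genes went apart: PSPH was 0.79 higher on the log2 scale, PSAT1 gave -0.15 and PHGDH -0.60. Of 16 cytosolic aminoacyl-tRNA synthetase genes, which charge tRNAs and are known targets of ATF4, 15 lay above 0 with a median of 0.53, but VARS1 alone was past 2-fold (355 against 175), and its other probe set gave -0.41. FARSA, 1.93-fold by the probe set used, gave 1.04 on the log2 scale by its other probe set.

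Of 18 NF-kB components measured 6 were at least 2-fold higher and none 2-fold lower, with a median of 0.29. Inhibitors of the pathway were among the 6, but not every inhibitor gene was higher. NFKBIB, which encodes IkB-beta, gave 60.3 signal units against 67.6, and 0.18 on the log2 scale by its other probe set. TNFAIP3, the ubiquitin-editing inhibitor A20, gave 475 signal units with nm23-H2 and 43.6 with vector, 10.9-fold, and 2.60 on the log2 scale by its other probe set. TNIP1, a partner of A20, gave 760 against 129 (5.90-fold), NFKBIA 1345 against 419 (3.21-fold), and TNIP2 244 against 96.2 (2.53-fold). Among the subunits RELB gave 145 against 38.3 (3.80-fold), whereas NFKB1 gave 134 against 108, RELA 601 against 642 (0.29 on the log2 scale by its other probe set) and NFKB2 54.2 against 54.9 (0.58 by its other). MYD88, the adaptor of the interleukin 1 and Toll-like receptors, was 2.00-fold higher.

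Cytokine genes split. IL1A gave 174 signal units against 34.1 (5.11-fold) and IL1B 425 against 97.6 (4.35-fold, and 2.09 on the log2 scale by its other probe set). IL1RN, the antagonist of their receptor, was 2.80-fold higher. The neutrophil chemokines CXCL2 (85.5 against 4.10) and CXCL1 (67.7 against 11.7) were at the floor with vector, so that bounds of at least 3.02-fold and 2.39-fold higher apply. CXCL8, which encodes interleukin 8, was at the floor with vector by both its probe sets, and the one used gave at least 1.73-fold and the other 488 against 15.8 signal units, a bound of 4.11 on the log2 scale. CXCL10, which draws T cells, and CX3CL1, fractalkine, were at the floor with nm23-H2 and at least 2.22-fold and 2.49-fold lower. Past 2-fold were 5 higher and 2 lower of 14 measured, and the median difference was -0.18, above 0 as deposited, with quantile normalization and with the higher floor.

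Of 20 mucosal defence and acute phase genes measured, 8 were past 2-fold higher and 4 lower, with a median of 0.69. LCN2, a protein that binds bacterial iron carriers, gave 1960 signal units against 235, 8.33-fold. Of the complement genes, C3 (207 against 3.43), C1R (119 against 6.64), C1S (109 against 6.86) and CFB (112 against 14.3) were below the floor on the vector array and above it with nm23-H2, with bounds of at least 7.31-fold, 4.21-fold, 3.85-fold and 3.95-fold. C1R and C1S encode the proteases that start the classical pathway, and CFB a protease of the alternative pathway. S100A8 and S100A9, which together form calprotectin, gave 5493 against 1904 (2.88-fold) and 1952 against 504 (3.87-fold). On the other side, the adhesion molecules CEACAM5 and CEACAM6 were 2.28-fold and 2.31-fold lower, PIGR, the carrier of IgA across epithelium, at least 2.27-fold lower and BPIFA1 at least 2.35-fold lower.

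Antigen presentation genes lay mostly above 0, 17 of 20 with a median of 0.57, and 4 were at least 2-fold higher. TAPBP, tapasin, which loads peptides onto class I molecules, gave 477 signal units against 157 (3.04-fold), HLA-B 1921 against 901 (2.13-fold), and CD74, the invariant chain of class II, 99.9 against 16.6 (at least 3.53-fold). HLA-C gave 3096 against 1628 and B2M, the light chain of class I, 2083 against 1337, both under 2-fold. Interferon response genes did not move as a group: 16 of 30 lay above 0 with a median of 0.05, which was below 0 with a common median and with the higher floor. IFI27 gave 772 against 164 (4.70-fold), and the transcription factors IRF9 (2.63-fold) and IRF7 (2.47-fold) were higher. BST2, which tethers virus particles, was 2.21-fold lower, OASL 2.16-fold lower and OAS2 2.00-fold lower, just short of the count. The other probe sets of OASL and OAS2 gave -0.36 and -0.15 on the log2 scale.

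Among 11 genes of the EGF receptor family, its ligands and adaptors, 3 ligand genes were past 2-fold, all higher, 6 lay above 0, and the median was 0.01. HBEGF gave 729 signal units against 113 (6.45-fold, and 3.10 on the log2 scale by its other probe set) and NRG1 811 against 244 (3.32-fold). The other NRG1 probe sets above the floor gave between 0.03 and 1.62 on the log2 scale. TGFA was 2.07-fold higher by the probe set used and -0.98 on the log2 scale by its other probe set. EGFR gave 1239 against 1218, with its other probe sets between -0.45 and 0.72, and ERBB3 39.2 against 63.0, with 0.32 by its other probe set. Among 20 genes of ERK output, 4 were at least 2-fold higher: PHLDA1 (1203 against 151, 7.95-fold), IER3 (4271 against 1071, 3.99-fold) and the ERK phosphatases DUSP4 (2.52-fold) and DUSP6 (2.42-fold). The list's median was 0.16.

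AP-1 and immediate early genes had a median difference of 0.53, and 18 of 23 lay above 0, of which 4 were at least 2-fold higher. FOSL1, an AP-1 subunit, gave 2291 signal units against 477 (4.80-fold), and DUSP1, a phosphatase of stress kinases, 334 against 94.9 (3.52-fold). ZFP36, which destabilises cytokine mRNAs, was 2.54-fold higher, and ATF3 was the fourth. IER2 was the lowest, with 451 against 876.

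**Figure D2:**
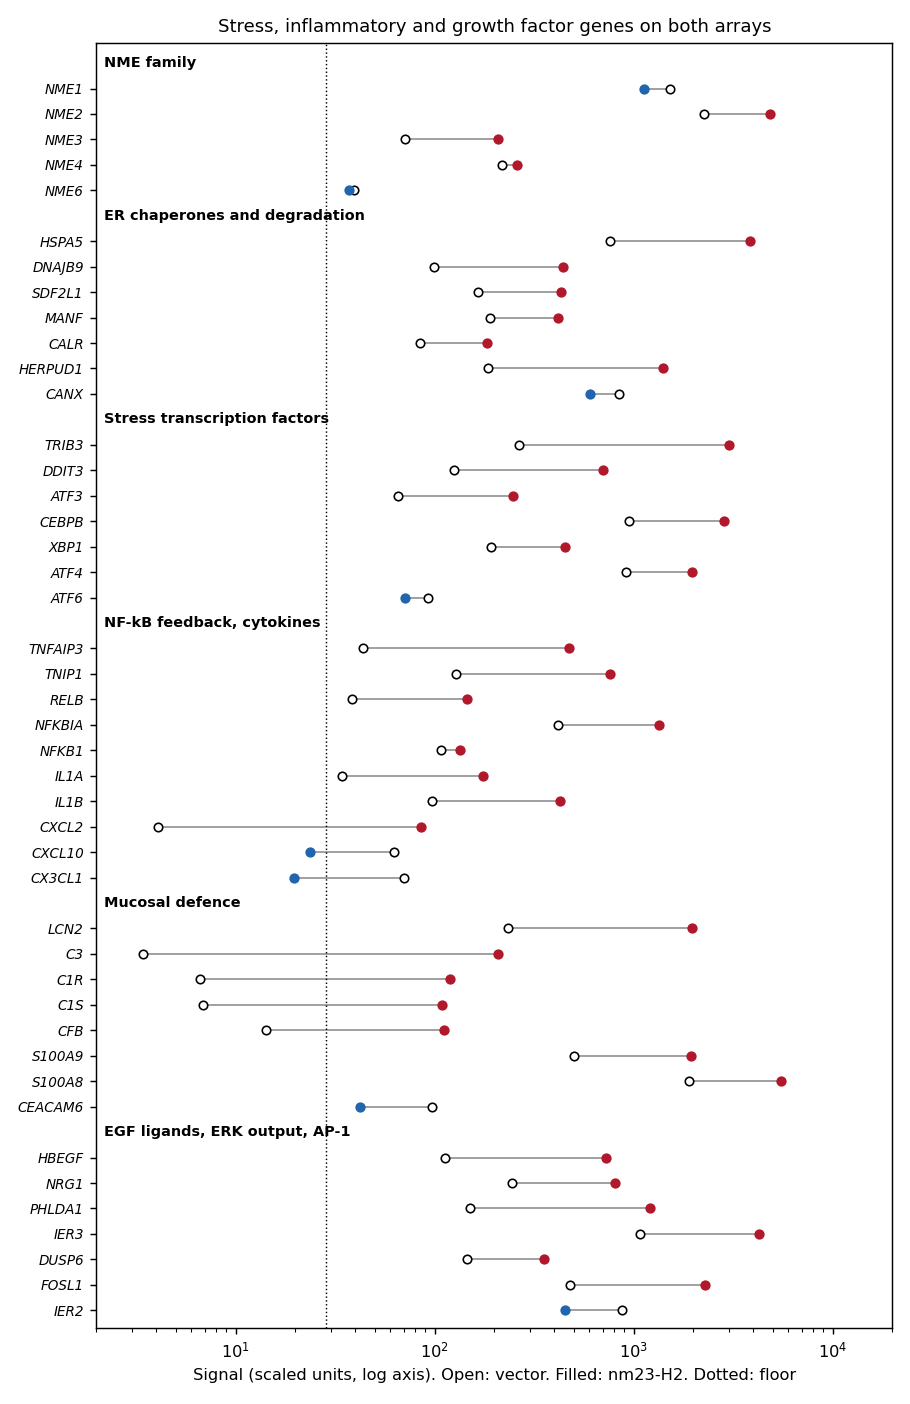
Scaled signals of 44 genes on the vector array (open circles) and the nm23-H2 array (filled, red where higher and blue where lower), on a log axis in signal units with the floor of 28.3 dotted. TNFAIP3, TRIB3 and LCN2 lie 8.33-fold or more apart, C3 and CXCL2 are below the floor with vector, and ATF6, CANX, CXCL10 and CX3CL1 are lower with nm23-H2.

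Of 15 keratins measured 5 were at least 2-fold lower and none higher, with a median of -0.48. KRT4 and KRT13, the partner keratins of non-cornified mucosa such as the tongue's, gave 24.7 against 778 signal units (at least 27.4-fold lower) and 105 against 963 (9.14-fold lower). The second KRT4 probe set was at the floor with nm23-H2 and gave only 30.1 with vector, so its difference of -0.09 rests on signals at the floor. KRT1 (100 against 288, 2.88-fold) and KRT10 (129 against 277, 2.14-fold), the pair of the suprabasal epidermis, were also lower, as was KRT8 (660 against 1349). The basal pair KRT5 (11699 against 9288) and KRT14 (12890 against 9823) and the stress keratin KRT16 (1447 against 810) were above their vector level by less than 2-fold, and KRT15, also of basal cells, gave -0.81 on the log2 scale.

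The cornified envelope genes went both ways, with 2 higher and 2 lower of 28 (7.14% each, against 3.76% and 3.84% of all measured genes). The median was -0.26, above 0 in the values as deposited. RHCG, an ammonium transporter of differentiated squamous epithelium, gave 181 signal units against 19.1 (at least 6.37-fold higher), and TGM1, the transglutaminase that crosslinks the envelope, 208 against 85.8 (2.42-fold higher). SPRR3 was 2.07-fold lower and the protease gene KLK6 2.36-fold lower. SERPINB1, an inhibitor of neutrophil proteases, gave 1270 against 202 (6.30-fold higher), and SERPINB13 63.6 against 176 (2.77-fold lower). The other SERPINB13 probe sets above the floor gave between -0.64 and -0.17 on the log2 scale.

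The interstitial collagenase MMP1 gave 79.6 signal units with nm23-H2 and 521 with vector, 6.54-fold lower, and the stromelysin MMP10 gave 7.40 against 157, at least 5.53-fold lower. MMP28, epilysin, was at least 2.98-fold higher. These were 3 of the 4 genes past 2-fold among 16 metalloproteinases and inhibitors. SPARC, a matricellular protein, gave 28.5 against 174 (6.08-fold lower), and VIM, vimentin, 24.7 against 72.4 (at least 2.55-fold lower). The other 18 of 20 mesenchymal and matricellular genes were within 2-fold, and 11 of the 20 lay above 0. CDH1, E-cadherin, differed by 0.12 on the log2 scale.

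Of 17 integrin, laminin and hemidesmosome genes 5 were at least 2-fold higher, none 2-fold lower and 13 above 0, with a median of 0.59 that was 0.21 with the mean of each gene's probe sets. LAMB3, a chain of laminin 332, gave 2951 signal units against 959 (3.08-fold), FERMT1, kindlin-1, which activates integrins, 476 against 111 (4.29-fold, and 1.86 on the log2 scale by its other probe set), and ITGA5, a subunit of the fibronectin receptor, 272 against 102 (2.67-fold). CD151 (2.47-fold) and ITGA3 (2.09-fold), which form a complex, completed the 5. The laminin chains LAMA5 (-0.56) and LAMA4 (-0.53), the integrin ITGA2 (-0.47) and DST, a plakin of the hemidesmosome (-0.63), lay below their vector level by less than 2-fold. FERMT1 lies in the stretch of chromosome 20 described below, with a median of 0.34 for the 50 genes around it. Of 32 actin and focal adhesion genes, ZYX (402 against 167, 2.41-fold), ACTN4 (587 against 261, 2.25-fold), TLN1 (2.22-fold) and TPM2 (2.16-fold) were higher. TLN1 and TPM2 lie in the stretch of chromosome 9, and the genes around them had medians of 0.54 and 0.57. PFN1, profilin, was lower (1584 against 3908, 2.47-fold), as was TPM1 (55.1 against 184, 3.35-fold), whose other probe sets gave -0.62 and -0.39.

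Genes of activin and BMP signalling went apart. INHBA, the subunit of activin A, gave 158 signal units against 6.97 (at least 5.59-fold higher), but its other probe set gave 0.14 on the log2 scale. LTBP2, a matrix protein of the latent TGF-beta binding family, gave 227 against 59.9 (3.80-fold), and SMAD3 348 against 134 (2.59-fold), with other probe sets between -0.10 and 1.06. ID3, a target of BMP signalling, gave 26.0 against 125 (at least 4.42-fold lower), and BMP7 109 against 268 (2.47-fold lower, with all 3 other probe sets also lower). The median of the 17 genes was 0.25, and -0.03 with only probe sets specific by name.

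Glycolysis genes lay above 0 for 19 of 21, with a median of 0.45, though most by little. The median was 0.22 with quantile normalization, 0.32 with the brightness trend removed and 0.85 with only probe sets specific by name. PDK1, which closes the entry of pyruvate into the mitochondrion, gave 85.0 signal units against 31.1 (2.73-fold), PFKP, a phosphofructokinase, 721 against 315 (2.29-fold), and the hexokinases HK2 and HK1 were 2.31-fold and 2.16-fold higher. The other HK2 probe set was near the floor and gave -0.10. TXNIP, which restrains glucose uptake, was lower (128 against 317, 2.48-fold), and its other probe sets gave -2.13 and -1.90. Among 23 hypoxia response genes 5 were at least 2-fold higher, with a median of 0.28: NDRG1 (2813 against 609, 4.62-fold), VEGFA (563 against 182, 3.10-fold), BNIP3 (198 against 68.2, 2.90-fold), EGLN3 (2.13-fold) and DDIT4, given above. The hypoxia genes PLOD2 (-0.92, and -0.05 by its other probe set), BNIP3L (-0.39) and EGLN1 (-0.47) were not higher.

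PYGB, the brain form of glycogen phosphorylase, had the largest difference on the higher side among the named genes, with 433 signal units against 9.19, at least 15.3-fold. PPP1R3C, which targets a phosphatase to glycogen, was at least 3.58-fold higher (101 against 27.8), and PHKG2, a subunit of phosphorylase kinase, 2.80-fold higher (146 against 52.1). The other 12 glycogen genes measured were within 2-fold, and GYS1, glycogen synthase, differed by 0.19. Among 36 genes of purine and pyrimidine metabolism 5 were at least 2-fold higher and none 2-fold lower, with a median of 0.13. ENTPD6, a nucleoside diphosphatase, gave 134 against 37.4 (3.59-fold), UPP1, uridine phosphorylase, 1992 against 715 (2.79-fold), and DTYMK, thymidylate kinase, 176 against 72.1 (2.44-fold). PFAS (2.41-fold), of purine synthesis, and TYMP (2.27-fold), thymidine phosphorylase, were the others.

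Of 20 cholesterol genes, 4 were at least 2-fold lower and none higher, while 7 lay above 0 and the median was -0.36: INSIG1, the ER protein that retains the SREBP complex (43.7 against 135 signal units, 3.08-fold), the sterol enzyme genes SC5D (32.5 against 96.0, 2.95-fold) and TM7SF2 (42.8 against 116, 2.72-fold), and DHCR7 (183 against 435, 2.38-fold). Both other INSIG1 probe sets were lower, by -1.12 and -0.99, and the other DHCR7 probe set gave -0.54. For 2 more genes of the pathway the probe sets disagreed: LSS gave 0.03 by the probe set used and -0.61 by its other, and SQLE -0.13 and 1.08. With only probe sets specific by name, the list's median lay 0.06 above that of all genes. Of 15 fatty acid genes 2 were past 2-fold lower and 1 higher, with a median of -0.45. SCD, stearoyl-CoA desaturase (166 against 598, 3.60-fold, with 3 other probe sets between -2.60 and -2.44), and SREBF1, the transcription factor of fatty acid synthesis (119 against 416, 3.51-fold), were the lower ones, and DGAT1, which completes triglyceride synthesis, was 2.80-fold higher.

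Histone genes had the lowest median of all 44 lists, -0.79, with 5 of 19 at least 2-fold lower, none higher and 2 above 0. The list was dim, with a median signal of 53.3 units, and 19 of its 36 genes with a probe set were measured. With only probe sets specific by name the median was -0.48. H2BC6 and H3C8 were read by _x_at probe sets alone. H2BC12 gave 492 signal units against 1492 (3.04-fold lower), H2AC6 46.3 against 116, H2BC6 84.1 against 195, H1-2 73.4 against 165, and H3C8 4.76 against 76.9 (at least 2.71-fold lower). H1-2, H2AC6, H2BC6 and H3C8 lie in a histone cluster of chromosome 6, where the median of the 50 genes around each was -0.26.

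Mitosis genes were mostly lower with nm23-H2. Of 45 mitosis genes 9 were at least 2-fold lower and 1 higher, 36 lay below 0, and the median was -0.48. STMN1, which destabilises microtubules, gave 32.1 signal units against 183 (5.69-fold), CKS2, a subunit of cyclin-dependent kinases, 578 against 1264 (2.19-fold), and PTTG1, securin, 743 against 1522 (2.05-fold). SMC4, a condensin subunit, and DLGAP5 were 2.49-fold and at least 2.46-fold lower. The AURKA probe set used was 2.21-fold lower with nm23-H2, and its other probe sets gave -0.95 and 0.20. The 50 genes around DLGAP5, on chromosome 14, had a median of -0.40. CDC25B, a phosphatase that opens mitosis, was 2.08-fold higher and lies in the stretch of chromosome 20 (0.73). Of 42 S phase genes, POLE2 (3.51-fold) and ASF1B (2.09-fold) were lower and CDC45 (2.16-fold) was higher. These are 4.76% lower and 2.38% higher, against 3.84% and 3.76% of all measured genes. The median was -0.23, above 0 in the values as deposited. POLE2 lies in a lower stretch of chromosome 14, and the 50 genes around it had a median of -0.25.

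Of 16 cell cycle inhibitor and p53 target genes, 2 passed 2-fold on the higher side and 1 on the lower, with a median of 0.53 that was 0.08 with the floor at the 25th percentile. CDKN1A, which encodes p21, gave 290 signal units against 114 (2.55-fold), and GADD45A 155 against 34.5 (4.49-fold). CDKN1C was 2.64-fold lower, CDKN1B, which encodes p27, gave -0.53 on the log2 scale, and the p53 target TP53I3 differed by -0.08. Among 28 apoptosis regulators 5 were at least 2-fold higher and none lower, with a median of 0.31. BID, which joins death receptors to mitochondria, gave 439 against 167 (2.63-fold), HTRA2, a mitochondrial protease, 499 against 203 (2.47-fold), and TNFRSF21, a death receptor, 455 against 207 (2.20-fold). MCL1, which protects cells, was 2.70-fold higher by the probe set used, with others between -0.12 and 0.50, and BNIP3 is given above.

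Of 59 subunits of oxidative phosphorylation 4 were at least 2-fold lower (6.78%, against 3.84% of all measured genes) and none higher. The median of the 59 was -0.12, above 0 in the values as deposited. The 4 encode small subunits: UQCR10 of complex III (1021 against 2670 signal units, 2.61-fold), NDUFC1 (212 against 517, 2.44-fold) and NDUFB4 (682 against 1440, 2.11-fold) of complex I, and ATP5MC3 of the ATP synthase (931 against 2179, 2.34-fold). The catalytic subunit genes SDHA (743 against 423) and NDUFV1 (1915 against 1243) were above their vector level by less than 2-fold. Cytosolic chaperones included CCT5, a chaperonin subunit (2210 against 936, 2.36-fold higher), while the heat shock genes DNAJB1 (-0.27), HSP90AA1 (-0.41) and HSPB1 (-0.53) were not higher, and the median of 23 was 0.12.

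Redox and xenobiotic genes showed no common direction, with a median near 0 over 39 genes, 2 higher and 5 lower. GSTM3, a glutathione transferase, gave 117 signal units against 839 (7.20-fold lower), CYP1A1, a target of the aryl hydrocarbon receptor, 36.0 against 218 (6.05-fold lower), and GSR, glutathione reductase, 51.8 against 172 (3.32-fold lower). GCLM, which limits glutathione synthesis, was 3.34-fold higher (174 against 52.1). Of the known NRF2 targets, HMOX1 gave 0.29, and NQO1 0.12 by the probe set used and 0.39 and -0.57 by the others.

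**Figure D3:**
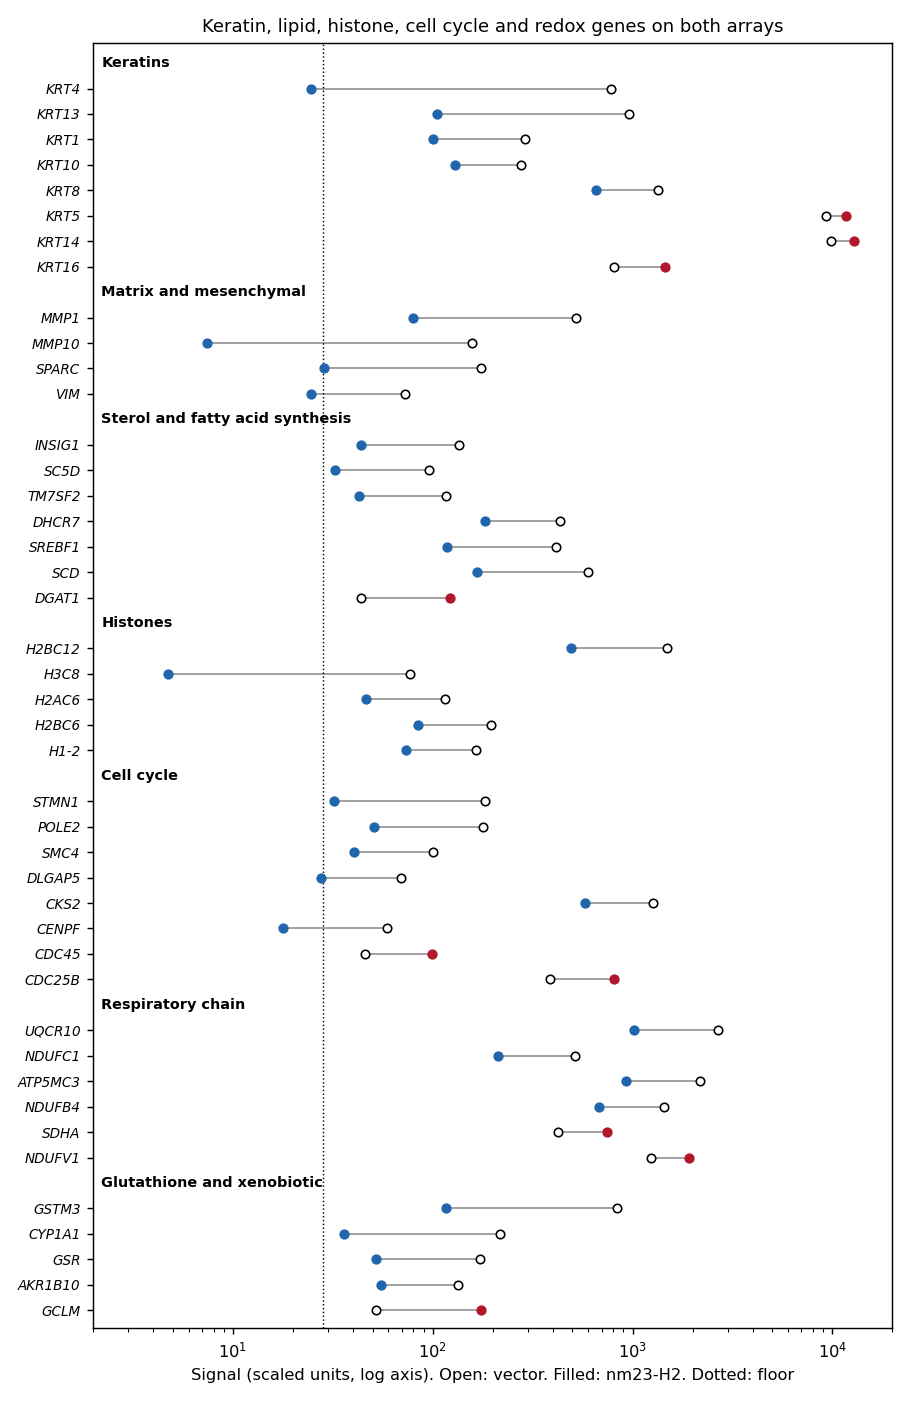
Scaled signals of 43 genes on the vector array (open circles) and the nm23-H2 array (filled, red where higher and blue where lower), on a log axis in signal units with the floor of 28.3 dotted. KRT4, KRT13, MMP1 and GSTM3 are 6.54-fold or more lower with nm23-H2, while KRT5 and KRT14, the brightest genes shown, are slightly higher.

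Outside the lists, the largest differences included CALB1, a calcium-binding protein (539 against 59.3 signal units, 9.09-fold higher, with 3.23 on the log2 scale by its other probe set), KYNU, an enzyme of tryptophan breakdown (978 against 196, 4.99-fold), and HDLBP, an RNA-binding protein (414 against 90.2, 4.59-fold). PLAC8 gave 34.7 against 351 (10.1-fold lower), CRIP1 41.8 against 183 (4.37-fold), HSPA2, a chaperone of the testis, 161 against 679 (4.22-fold), and LGALS1, galectin-1, 200 against 721 (3.61-fold). DAD1, a subunit of the ER glycosylation complex, gave 372 against 1292 (3.47-fold lower). CRIP1, HSPA2 and DAD1 are all on chromosome 14, where the genes around them had medians of -0.33, -0.37 and -0.27. SCNN1A, a subunit of the epithelial sodium channel, was 3.64-fold lower.

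**Figure D4:**
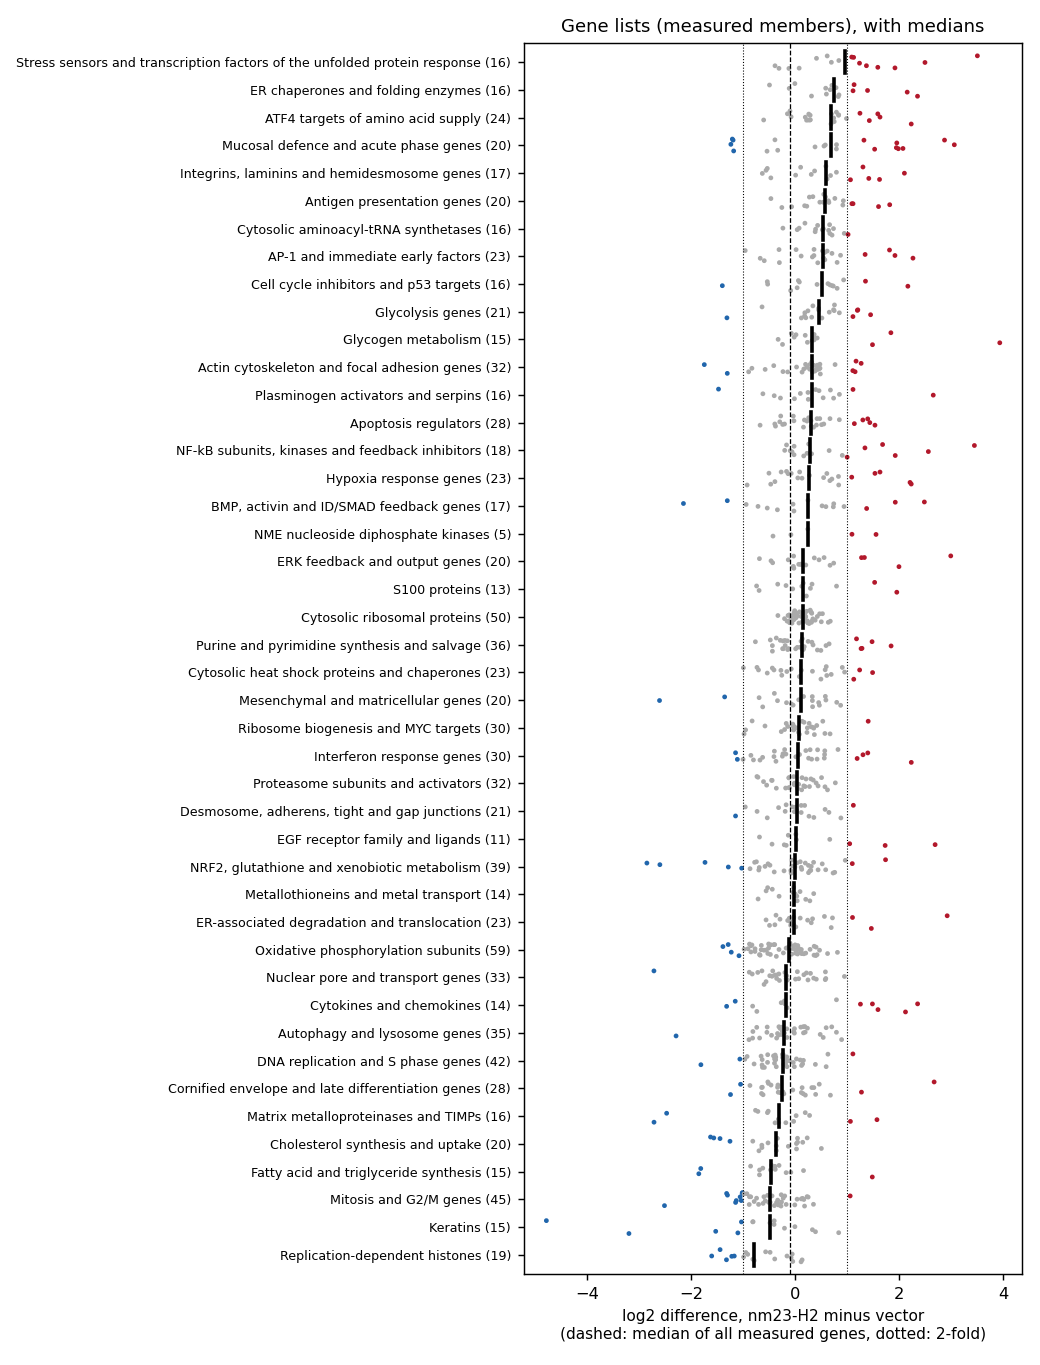
Log2 difference, nm23-H2 minus vector, of each measured member of 44 gene lists (points, red at least 2-fold higher, blue at least 2-fold lower), with the list's median as a black bar; lists are ordered by median, their number of measured genes is in parentheses, and the dashed line is the median of all genes, -0.09. Medians run from -0.79 for the histones to 0.96 for the stress transcription factors, and points of most lists lie on both sides of 0.

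In gene order the differences were not spread evenly. Medians of 50 neighbouring genes ran from -0.52 to 0.75. The highest window lay at the start of chromosome 20, from TRIB3 to RIN2 (0.75, with 15 genes past 2-fold higher and 1 lower). The next lay on the short arm of chromosome 9, from KLHL9 to ALDH1B1 (0.61, with 13 higher and none lower). The lowest were on chromosome 14, from TMX1 to ARG2 (-0.52) and from NEK9 to BCL11B (-0.40). All windows with a median of at least 0.4 either way lay on these 3 chromosomes, and they covered 281 genes (3.72%), which held 47 of the 574 genes past 2-fold (8.19%). Without them 252 genes were higher and 275 lower. On the nm23-H1 array, which is set against the same vector array, the windows from TRIB3 and from KLHL9 had medians of 1.13 and 0.71. The chromosome 14 windows from TMX1 and from NEK9 had medians of -0.36 and -0.33 on it. HSPA5, DDIT3, ATF4, HERPUD1, TNFAIP3 and LCN2 lie outside these windows.

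**Figure D5:**
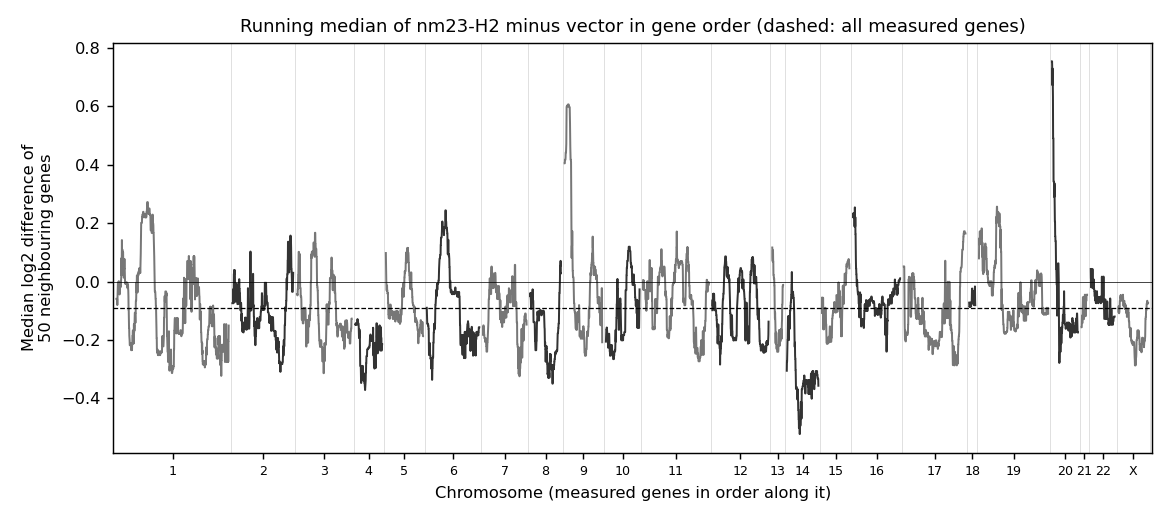
Median log2 difference, nm23-H2 minus vector, of 50 neighbouring measured genes (y) in gene order along each chromosome (x, chromosomes in alternating grey); the dashed line is the median of all genes, -0.09. The windows reach 0.75 on chromosome 20 and 0.61 on chromosome 9, and fall to -0.52 on chromosome 14.

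The third array gives the level of the same genes in nm23-H1 cells, without a replicate. For HSPA5, DDIT3, HERPUD1 and DNAJB9 it gave 818, 127, 177 and 83.7 signal units, near the vector's 757, 125, 186 and 99.5 and below the nm23-H2 values. For TNFAIP3 and LCN2 it gave 52.5 and 120, and for KRT4 and KRT13 1001 and 1806, all far from the nm23-H2 signals. KRT8, by contrast, gave 496 on it, below 660 with nm23-H2 and 1349 with vector. PYGB (159 signal units), CALB1 (206), TRIB3 (724), C1R (61.7) and NME3 (170) lay between the vector and the nm23-H2 array. Other genes were about as high with nm23-H1 as with nm23-H2, among them MYD88 (532 signal units), IRF7 (92.5) and PFAS (106). CREB3 (416), DTYMK (187) and ENTPD6 (175) exceeded their nm23-H2 signals, so such differences from vector are not particular to nm23-H2. PLAC8 (81.2) and SPARC (53.2) lay between them as well, on the lower side.

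At the 2-fold threshold the order of genes carries no weight, since it is finer than the SD of 0.35 between probe sets. Just past it on the higher side were NOL3 and TFPT (each 2.01-fold), and just short of it ARMCX3 (1.99-fold) and RBFA (1.99-fold). On the lower side NUCKS1 (2.01-fold) was just past it and EFEMP1 (1.99-fold) just short.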

How the data were processed

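RNA of CAL 27 cells was hybridised to 1 Affymetrix array per construct. The deposited table gives a linear intensity for every probe set, from MAS5 per the submitters' processing notes. Its version and scaling target are not given in the sources used here, and the files hold no detection calls. Each of 3 arrays was scaled to a common mean between the 2nd and 98th percentiles (factors 0.881 for nm23-H2, 1.11 for vector and 1.03 for nm23-H1), values under the pooled median of 28.3 were set to it, and log2 was taken. Each gene had 1 probe set: _x_at names were used only where no other existed, and the brightest over the 3 arrays was kept. Probe sets of several genes (1043) and without a listed gene (2169) were left out, except that of NME2. Genes at least 2-fold apart (1 on the log2 scale) were counted. No test was made, and the number of arrays limits the precision. Probe error is the SD of the difference between a gene's brightest 2 probe sets, divided by the square root of 2.

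The members, the 44 gene lists, the settings and the motifs were chosen with earlier results of these data known. Named were NME1 and NME2, the 25 largest differences each way among genes whose brighter array reached 66.2 signal units (the 70th percentile) and none of whose other probe sets opposed them by 0.5 or more, each list's core genes and its 4 highest and lowest members, and 5 genes on each side of both thresholds. Further list members, such as C1S, CXCL1, CREB3, KRT8, TNIP2 and TYMP, and the ER stress element II were added after values were seen. Promoters came from RefSeq (GRCh38.p14), the first listed per gene. Alternatives were other scalings, floors, probe set choices and thresholds, with the brightness trend and the chromosome windows added after seeing the data. The steps were tested on simulated data. Python 3.11.15, numpy 2.4.6, pandas 2.3.3, statsmodels 0.14.6 and matplotlib 3.10.9 were used.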

Additional observations from a re-analysis of the deposited data

Results flagged for a closer look

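The 18 probe sets for spiked bacterial and phage control transcripts, which enter no gene comparison, were brighter on the nm23-H2 array than on the vector array. Their median ratio in the deposited signals was 2.05, with a range from 1.66 to 2.50, and 1.63 after scaling. On the nm23-H1 array the median ratio to vector was 1.01. Such transcripts are added in fixed amounts, and no source used here gives the amount per array.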

How the results depend on the processing

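The all-gene median of -0.09 lay between -0.16 and -0.03 under every alternative except the values as deposited, where it was 0.21. In those values 631 higher and 108 lower genes passed 2-fold, against 284 and 290. A floor at the 25th percentile gave 622 and 979, and at the 70th percentile 193 and 112. Probe sets ending in plain _at, which test fewer genes, gave 164 and 168, and a log2 threshold of 1.5 gave 85 and 46. A common median, quantile normalization, 16 added in place of the floor, the mean or median of a gene's probe sets, leaving out the nm23-H1 array, removing the brightness trend and leaving out the shifted chromosome windows kept both counts within 1.5 times. Of 185 named genes past 2-fold, 90 were past it under all the alternatives that measured them. The 70th percentile floor lost 39, the mean of probe sets 36 and the deposited values 30. With plain _at probe sets AURKA turned to 0.20 and SMAD3 to -0.045, by another probe set. The lists of ER chaperones, stress transcription factors, ATF4 targets, NF-kB components, keratins, histones, mitosis, cholesterol and fatty acid synthesis kept the sign of their median under these alternatives. No paired analysis was possible because each group has 1 array. Signals near the floor limit the lower genes, 85 of which are bounds, and the probe set error of 0.35 leaves out cultures, transfected lines and hybridisations.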

Other observations

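Several large gene groups differed little. Of 50 cytosolic ribosomal protein genes none were past 2-fold, 35 lay above 0, and the median was 0.15, which turned to -0.10 with quantile normalization. Of 32 proteasome genes none were past 2-fold (median 0.04, below 0 with a common median). None of 14 metallothionein and metal transport genes were past 2-fold (median -0.01, above 0 as deposited).

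Of 33 nuclear pore and transport genes, NUP62 alone was past 2-fold, with 27.6 against 186 signal units (at least 6.55-fold lower), and its other probe set gave -0.36. Of 35 lysosome and autophagy genes, GPNMB, a glycoprotein of lysosomes and melanosomes, alone was past 2-fold, with 37.5 against 183 (4.88-fold lower). In the junction genes, GJB5, a connexin, was 2.17-fold higher (248 against 114) and CXADR, the coxsackievirus receptor, 2.21-fold lower (30.3 against 67.0). MYC gave 284 against 290 signal units, and ODC1, which starts polyamine synthesis and is a known MYC target, 2766 against 1045 (2.65-fold higher).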
